A study of Mus musculus with 12 samples.

Results

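The BCL2 family genes of survival and death were followed through 12 RNA-Seq libraries of mouse liver and liver tumor. The 10 members were taken by symbol from the 17003 genes kept from the deposited values and were sorted into 3 classes by their known roles. The pro-survival members were *Mcl1*, *Bcl2* and *Bcl2l1* (which encodes BCL-XL). The effectors were *Bax*, *Bak1* (BAK) and *Bok*. The BH3-only members were *Bid*, *Bbc3* (PUMA), *Pmaip1* (NOXA) and *Bcl2l11* (BIM). All 10 members were found. Of these, 9 passed the filter on low values, at least 0.5 FPKM in at least 3 libraries, and were tested. *Bcl2* did not pass and is described by its values only.

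Proteins of this family decide whether the outer membrane of the mitochondrion stays intact. Activated BAX and BAK form pores in that membrane and release cytochrome c, which starts the caspase cascade. Pro-survival proteins bind and restrain the effectors, and BH3-only proteins, made or activated under stress, either occupy the pro-survival proteins or activate the effectors directly. MCL1 is a short-lived protein on which hepatocytes are known to depend together with BCL-XL. High c-MYC activity is known to sensitize cells to apoptosis, and extra pro-survival protein is known to cooperate with it in tumors.

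The libraries fell into 4 groups of 3. Normal livers came from wild-type C57BL/6 mice that received no plasmid. The other groups were c-MYC/MCL1/RictorKO Tsc2KO tumors, hepatocellular carcinomas raised by hydrodynamic tail vein injection of plasmids for c-MYC, MCL1 and Cre recombinase, with sleeping beauty transposase, into mice with floxed *Rictor* and *Tsc2*. RICTOR is a subunit of mTORC2, and TSC2 restrains mTORC1. The labels name the treatment, and the study's methods describe gavage from 6 days after injection for 3 weeks, 6 days a week. Tumor-bearing mice received vehicle, MLN0128 at 1 mg/kg per day, or everolimus at 1 mg/kg per day. Per those methods, sacrifice was 3.7 weeks after injection. A course of days rather than weeks is stated elsewhere for the sequenced tumors, so whether the drug differences follow a short or a long treatment is not settled. MLN0128 inhibits the mTOR kinase itself, while everolimus, an analog of rapamycin, blocks mTORC1. All tumor groups thus shared both oncogene plasmids, Cre and both floxed alleles, so the tumor, the plasmids, the deletions and the injection cannot be told apart in a comparison with normal liver. The study's methods state that both sexes were used, and no ages were given for these mice. The labels number 3 samples per group without linking a number to a day or litter, so p-values measure the spread between these libraries.

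Reads recovered from the deposited values numbered 17142518 to 25155263 per library, with a median of 18644422. Hepatocyte markers (8 genes, among them *Alb* and *Apob*) summed to 81609 to 100771 FPKM (a level corrected for gene length and sequencing depth) in normal liver and to 1891 to 8060 in the 9 tumor libraries. *Tsc2* read 4.50 to 5.32 FPKM for normal liver but 2.01 to 3.96 for tumors, and *Rictor* read 1.65 to 2.57 and 1.05 to 2.21. Values over a whole gene do not resolve the deleted exons. MLN0128 replicates 1 and 2 carried *Xist* at 191 and 155 FPKM and 0 on 4 Y-linked genes, whereas the other 10 libraries had *Xist* at no more than 0.0699 FPKM and the Y-linked genes at 20.3 to 97.0 FPKM in sum. These are the readings of female mice for those 2 libraries and of male mice for the other 10, so sex and MLN0128 are partly confounded. Results with MLN0128 are therefore also given without both of these libraries, where the 1 that remains is assumed to vary like the other groups.

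Promoter sequences are shown for 4 members that moved between groups: *Mcl1*, and *Bax*, *Bbc3* and *Bcl2l11*, whose windows held a marked motif. *Bak1*, *Bid* and *Bcl2l1* also moved, held neither marked motif and are not shown, so the windows shown are not typical of the members that moved. The E-box CACGTG was searched because c-MYC was one of the injected oncogenes and is known to bind it. The sequences are RefSeq's for GRCm38.p6, each running from 250 bases before to 50 bases after a transcription start, 5′ to 3′ on the strand of the gene. Of the 10 members, 9 matched an entry, with 14 starts in all; *Pmaip1* did not. Capitals mark CACGTG or the forkhead motif GTAAACA.
Mcl1, chr3:95658471-95658770, + strand: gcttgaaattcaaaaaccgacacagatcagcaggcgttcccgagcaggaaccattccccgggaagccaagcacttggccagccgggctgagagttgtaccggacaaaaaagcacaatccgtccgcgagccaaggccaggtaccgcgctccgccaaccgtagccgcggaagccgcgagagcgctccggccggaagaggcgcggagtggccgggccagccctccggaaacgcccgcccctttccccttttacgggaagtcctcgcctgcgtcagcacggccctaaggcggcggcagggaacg
Bax, chr7:45466849-45467148, - strand: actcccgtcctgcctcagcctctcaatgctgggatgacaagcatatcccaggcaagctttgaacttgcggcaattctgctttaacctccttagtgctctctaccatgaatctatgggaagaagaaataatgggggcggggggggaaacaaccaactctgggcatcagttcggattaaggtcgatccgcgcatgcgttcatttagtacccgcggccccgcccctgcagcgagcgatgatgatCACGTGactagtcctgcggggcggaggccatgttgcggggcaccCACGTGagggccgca
Bbc3, chr7:16310181-16310480, + strand: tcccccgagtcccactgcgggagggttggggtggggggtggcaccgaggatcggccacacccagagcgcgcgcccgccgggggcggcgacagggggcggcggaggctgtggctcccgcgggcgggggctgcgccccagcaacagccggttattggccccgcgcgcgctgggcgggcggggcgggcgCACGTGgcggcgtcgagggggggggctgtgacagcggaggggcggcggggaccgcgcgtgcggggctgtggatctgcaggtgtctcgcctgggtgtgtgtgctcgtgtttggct
Bcl2l11, chr2:128125788-128126087, + strand: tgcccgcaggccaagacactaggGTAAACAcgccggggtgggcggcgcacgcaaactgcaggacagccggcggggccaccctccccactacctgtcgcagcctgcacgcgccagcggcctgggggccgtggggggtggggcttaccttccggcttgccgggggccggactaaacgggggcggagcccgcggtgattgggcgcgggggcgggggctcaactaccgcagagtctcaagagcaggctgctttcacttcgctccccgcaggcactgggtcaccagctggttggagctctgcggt
The *Bax* window held 2 copies of CACGTG, at positions 242 and 286 of 300, one just before the start and the other after it. The *Bbc3* window held 1 copy, at position 187, and the *Bcl2l11* window held 1 copy of GTAAACA, at position 24. A second of the 3 starts of *Bbc3* had GTAAACA on the reverse strand, at position 84. Neither motif occurred in the windows of *Mcl1*, *Bcl2l1*, *Bcl2*, *Bak1*, *Bok* or *Bid*. Both strands were searched. Of 32851 RefSeq promoter windows of the same length, 7.15% held CACGTG and 3.65% held GTAAACA. The CRE motif TGACGTCA (1.79% of windows) and the ATF4 type motif TGATGCAA (0.895% of windows) were found in none of the 14. A match or its absence describes these letters in this window and is not evidence of binding.

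Most tested members were higher in the tumors than in normal liver, and with MLN0128 members of the pro-survival and BH3-only classes were called in both directions, whereas the 1 effector called with either drug was lower. In vehicle-treated tumors against normal liver, 7 members were called higher and 0 lower, where 36.0% of all 14393 tested genes were called higher and 33.0% lower. Among the 7, *Pmaip1* passed the filter through its tumor libraries only. The count of 0 lower was also 0 at an unadjusted p under 0.05 and with limma's voom on the recovered reads. With MLN0128 against vehicle, 3 members were called higher and 3 lower, against backgrounds of 14.9% and 17.1%. With everolimus against vehicle, 0 members were called higher and 2 lower, against backgrounds of 3.77% and 6.04%. Of the members, 2 were higher with everolimus at an unadjusted p under 0.05, and 0 by voom. In MLN0128 against everolimus, 3 members were higher and 1 was lower, against backgrounds of 3.99% and 5.54%. Calls were made by limma's moderated test on log2(FPKM + 1) at a Benjamini-Hochberg adjusted p under 0.05 over all tested genes. Comparisons with vehicle share the 3 vehicle libraries.

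**Figure D1:**
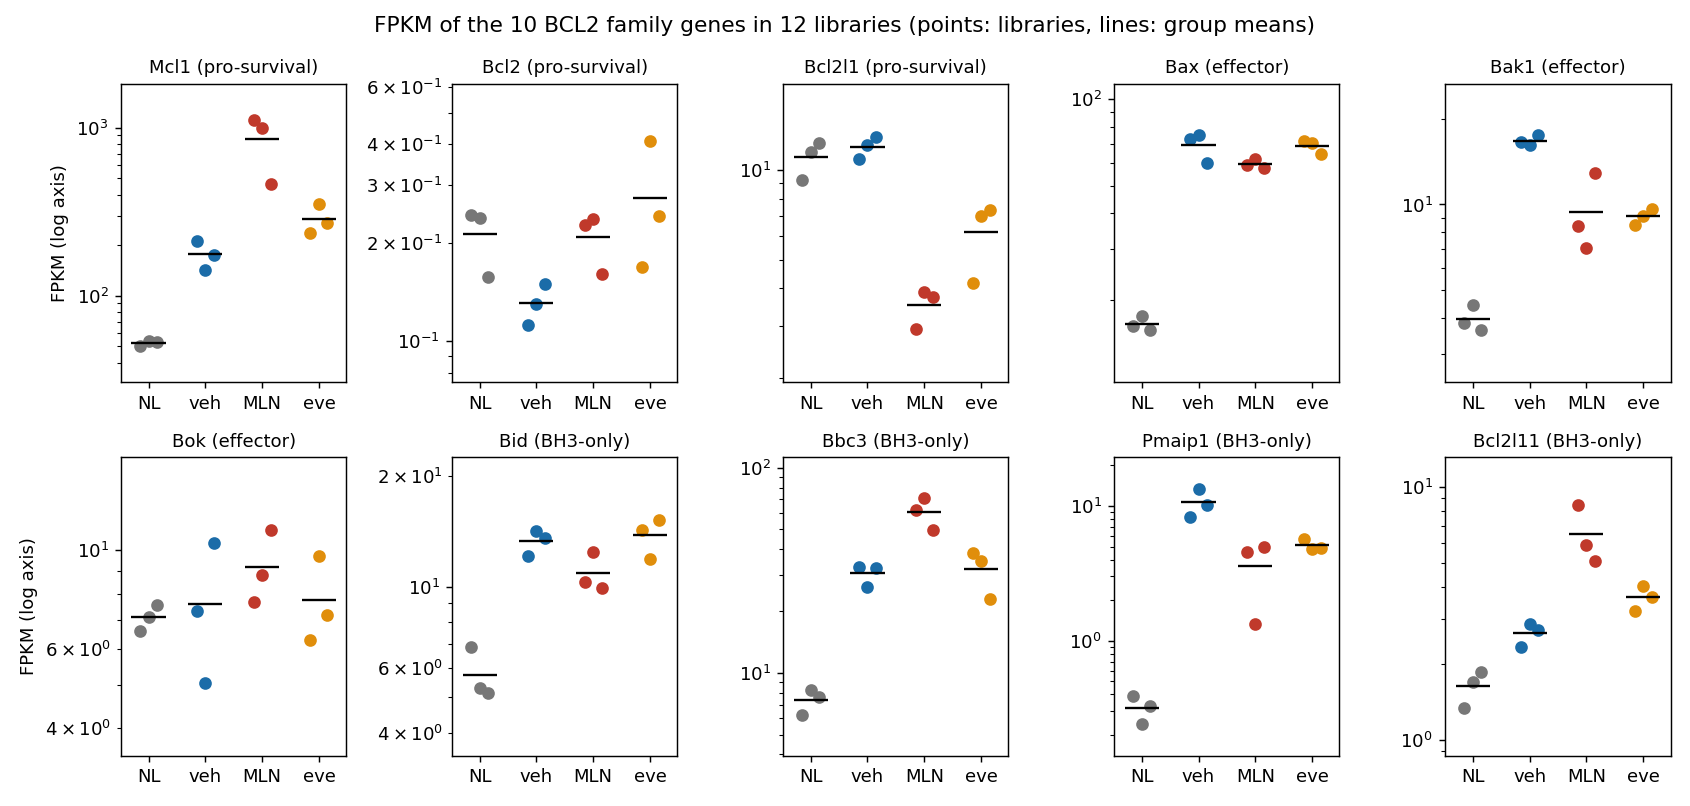
FPKM of each member on a log axis, with 1 point per library, a line at the mean of each group, and NL, veh, MLN and eve standing for normal liver, vehicle, MLN0128 and everolimus. *Mcl1* stepped up from 50.2 to 53.9 FPKM in normal liver to 461 to 1120 with MLN0128, whereas *Bcl2l1* was lowest there, at 2.93 to 3.88.

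*Mcl1* was the most abundant member in all 12 libraries and, with all 3 MLN0128 libraries included, carried the largest change under MLN0128. It read 50.2, 53.9 and 53.2 FPKM in normal liver, 211, 143 and 176 in the vehicle group, 1120, 992 and 461 under MLN0128, and 235, 354 and 270 under everolimus. Each tumor library lay above each normal liver, and each MLN0128 library lay above all others. Vehicle-treated tumors averaged 177 ± 34.0 FPKM (SD, n = 3) against 52.4 ± 1.97 in normal liver, so that the fitted log2 difference was 1.72 (SE 0.293, adjusted p = 0.000261). MLN0128 averaged 858 ± 349 FPKM, 4.85 times the mean with vehicle, and the log2 difference was 2.19 (SE 0.293, adjusted p = 0.000461). Without MLN0128 replicates 1 and 2, the remaining library still gave 1.4 (adjusted p = 0.0123). With everolimus *Mcl1* averaged 286 ± 61.2 FPKM, and its log2 difference from vehicle of 0.69 (95% interval 0.05 to 1.33, adjusted p = 0.158) was not called, although all 3 libraries lay above those with vehicle. That difference was called when MLN0128 replicate 3 was left out (adjusted p = 0.0343), since the groups share 1 estimate of the spread.

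*MCL1* was also injected as a plasmid, and one value per gene cannot divide reads of the plasmid from those of the gene on chromosome 3 (95658788 to 95663176 of GRCm38); the 2 sources cannot be told apart here. The species of the injected *MCL1* sequence was not given in the sources used here. *Myc*, the mouse counterpart of the other injected oncogene, was listed at 4.01 to 12.2 FPKM in normal liver and at 0.799 to 3.01 in the 9 tumor libraries. Reads recovered on *Mcl1* numbered 1850 to 2032 per normal liver and 10295 to 108609 per tumor library.

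*Bcl2l1* was lowered by both drugs and did not differ detectably between vehicle-treated tumors and normal liver. Its values were 9.24, 11.5 and 12.3 FPKM in normal liver, 10.9, 12.1 and 12.9 in the vehicle group, 2.93, 3.88 and 3.73 under MLN0128, and 4.16, 7.01 and 7.33 under everolimus. Normal liver and vehicle overlapped, everolimus lay below both, and MLN0128 lay below everolimus. The log2 fold change was 0.12 in tumors against normal liver (95% interval -0.28 to 0.51, adjusted p = 0.587). It was -1.53 with MLN0128 (SE 0.181, adjusted p = 0.000253) and -0.88 with everolimus (SE 0.181, adjusted p = 0.0120). With those 2 MLN0128 libraries left out the first drug difference was -1.45 (adjusted p = 0.0116), and without vehicle replicate 3 the everolimus difference was -0.83 and no longer called (adjusted p = 0.0567). *Bcl2l1* lies on chromosome 2, at 152780668 to 152831728 on the minus strand.

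*Bcl2*, the founding member of the family, was near the lower limit of detection throughout. It read 0.243, 0.238 and 0.157 FPKM in normal liver, 0.112, 0.130 and 0.15 in the vehicle group, 0.227, 0.236 and 0.160 under MLN0128, and 0.168, 0.411 and 0.241 under everolimus. These values rested on 15 to 114 reads per library. The vehicle libraries were the lowest, below all normal livers and all drug-treated libraries, but no test was made because the gene failed the filter.

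The effectors separated into a pair that was about 4 times higher in the tumors and *Bok*, which was not. *Bax* read 16.2, 17.6 and 15.7 FPKM in normal liver, 72.7, 74.8 and 59.8 in the vehicle group, 59.1, 62.0 and 57.5 under MLN0128, and 71.7, 70.4 and 64.4 under everolimus. Tumor and normal values were far apart, and the vehicle range overlapped that of either drug. Its log2 fold change was 2.0 in vehicle-treated tumors (SE 0.111, adjusted p = 4.97e-08). The differences were -0.21 with MLN0128 (95% interval -0.45 to 0.04, adjusted p = 0.180) and close to 0 with everolimus (95% interval -0.24 to 0.24). Over 12.2% of its exonic bases *Bax* overlaps the protein-coding gene *Gm45808* on the same strand, and *Gm45808* was not among the genes with values.

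*Bak1*, the other pore former, rose in the tumors and was lowered by both drugs. It read 3.85, 4.45 and 3.62 FPKM in normal liver, 16.6, 16.1 and 17.5 in the vehicle group, 8.38, 7.02 and 12.9 under MLN0128, and 8.47, 9.11 and 9.67 under everolimus. All drug-treated libraries lay below vehicle and above normal liver. The log2 fold change was 1.84 against normal liver (SE 0.170, adjusted p = 2.09e-06), -0.80 with MLN0128 (SE 0.170, adjusted p = 0.00451) and -0.82 with everolimus (SE 0.170, adjusted p = 0.0129). No difference between the drugs was detected in *Bak1* (0.01, 95% interval -0.36 to 0.38). Without MLN0128 replicates 1 and 2 the MLN0128 value shrank to -0.35 and was not called (adjusted p = 0.146). With every library rescaled to the same FPKM sum neither drug's call held (MLN0128 -0.59, adjusted p = 0.0720, and everolimus -0.84, adjusted p = 0.0545). The everolimus call was also lost without vehicle replicate 3 (-0.78, adjusted p = 0.0573) and without everolimus replicate 1 (-0.77, adjusted p = 0.0589). In the GENCODE annotation 25.5% of the exonic bases of *Bak1* overlap *Ggnbp1* on the opposite strand, and whether the counting used strand was not given. *Ggnbp1* was at 0.662 to 1.09 FPKM with vehicle and 1.15 to 3.14 in the other groups.

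*Bok*, an effector that is known to act apart from the pro-survival proteins, stayed within 5.05 and 11.1 FPKM in all 12 libraries. It read 6.60, 7.10 and 7.55 FPKM in normal liver, 7.30, 5.05 and 10.4 in the vehicle group, 7.67, 8.82 and 11.1 under MLN0128, and 6.30, 9.71 and 7.18 under everolimus. The groups overlapped, and the 3 vehicle libraries spanned nearly the whole range. Log2 differences were 0.04 in tumors against normal liver (95% interval -0.44 to 0.52), 0.28 with MLN0128 (-0.20 to 0.76) and 0.05 with everolimus (-0.42 to 0.53), none of them called.

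All 4 BH3-only members were called higher in vehicle-treated tumors, and under MLN0128 they divided. *Pmaip1* changed most. It read 0.386, 0.240 and 0.326 FPKM in normal liver, on 7 to 11 reads, and 8.24, 13.4 and 10.2 with vehicle. With MLN0128 it read 4.55, 1.33 and 4.93 FPKM, and with everolimus 5.72, 4.83 and 4.88. The drug-treated libraries lay between normal liver and vehicle without touching either. *Pmaip1* passed the filter through its tumor libraries only. The mean with vehicle was 33.4 times that of normal liver, and on the log2(FPKM + 1) scale, which understates changes of low genes, the difference was 3.12 (SE 0.294, adjusted p = 2.46e-06). It fell by 1.43 with MLN0128 (SE 0.294, adjusted p = 0.00402). The everolimus difference of -0.90 (95% interval -1.54 to -0.25) was not called (adjusted p = 0.0746), and was called without MLN0128 replicate 2 (adjusted p = 0.00587), the library with the lowest tumor value. Without MLN0128 replicates 1 and 2 the MLN0128 difference was -0.95 (adjusted p = 0.0273).

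*Bbc3*, a transcriptional target of p53 that binds all pro-survival proteins, rose with the tumor and again with MLN0128. It read 6.24, 8.28 and 7.63 FPKM in normal liver, 32.8, 26.2 and 32.5 in the vehicle group, 62.2, 71.0 and 49.8 under MLN0128, and 38.3, 35.1 and 22.8 under everolimus. The MLN0128 libraries lay above all others, whereas vehicle and everolimus overlapped. The log2 fold change was 1.91 against normal liver (SE 0.197, adjusted p = 4.95e-06) and 0.97 with MLN0128 (SE 0.197, adjusted p = 0.00372). It was 0.04 with everolimus (95% interval -0.39 to 0.48, adjusted p = 0.917). With MLN0128 replicate 3 alone the MLN0128 difference was 0.70 and not called (adjusted p = 0.122).

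*Bcl2l11*, whose protein binds every pro-survival member and is known as a FOXO target, followed a similar course at lower levels. It read 1.33, 1.69 and 1.86 FPKM in normal liver, 2.32, 2.87 and 2.72 in the vehicle group, 8.49, 5.88 and 5.07 under MLN0128, and 3.23, 4.05 and 3.67 under everolimus. The 4 groups did not overlap. The log2 fold change with MLN0128 was 1.02 (SE 0.161, adjusted p = 0.00102), and 0.74 without replicates 1 and 2 (adjusted p = 0.0271). The everolimus difference of 0.35 (95% interval 0.00 to 0.71) was not called (adjusted p = 0.185). The smaller tumor difference of 0.47 (SE 0.161, adjusted p = 0.0209) was lost without normal liver replicate 1 (0.39, adjusted p = 0.0828), vehicle replicate 2 (0.43, adjusted p = 0.0655) or vehicle replicate 3 (0.45, adjusted p = 0.0550).

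*Bid*, which caspase-8 cleaves to link death receptors to the mitochondrion, was called between tumor and normal liver and in no other comparison. It read 6.84, 5.29 and 5.13 FPKM in normal liver, 12.1, 14.2 and 13.6 in the vehicle group, 10.3, 12.4 and 9.91 under MLN0128, and 14.3, 11.9 and 15.2 under everolimus. Its log2 fold change against normal liver was 1.09 (SE 0.136, adjusted p = 2.28e-05). The tumor groups overlapped, with differences from vehicle of -0.27 (MLN0128, 95% interval -0.57 to 0.03, adjusted p = 0.149) and 0.05 (everolimus, -0.25 to 0.34, adjusted p = 0.871). The exons of *Bid* overlap *Bcl2l13* on the opposite strand over 17.7% of their length, and *Bcl2l13* was at 5.61 to 9.23 FPKM in all libraries.

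**Figure D2:**
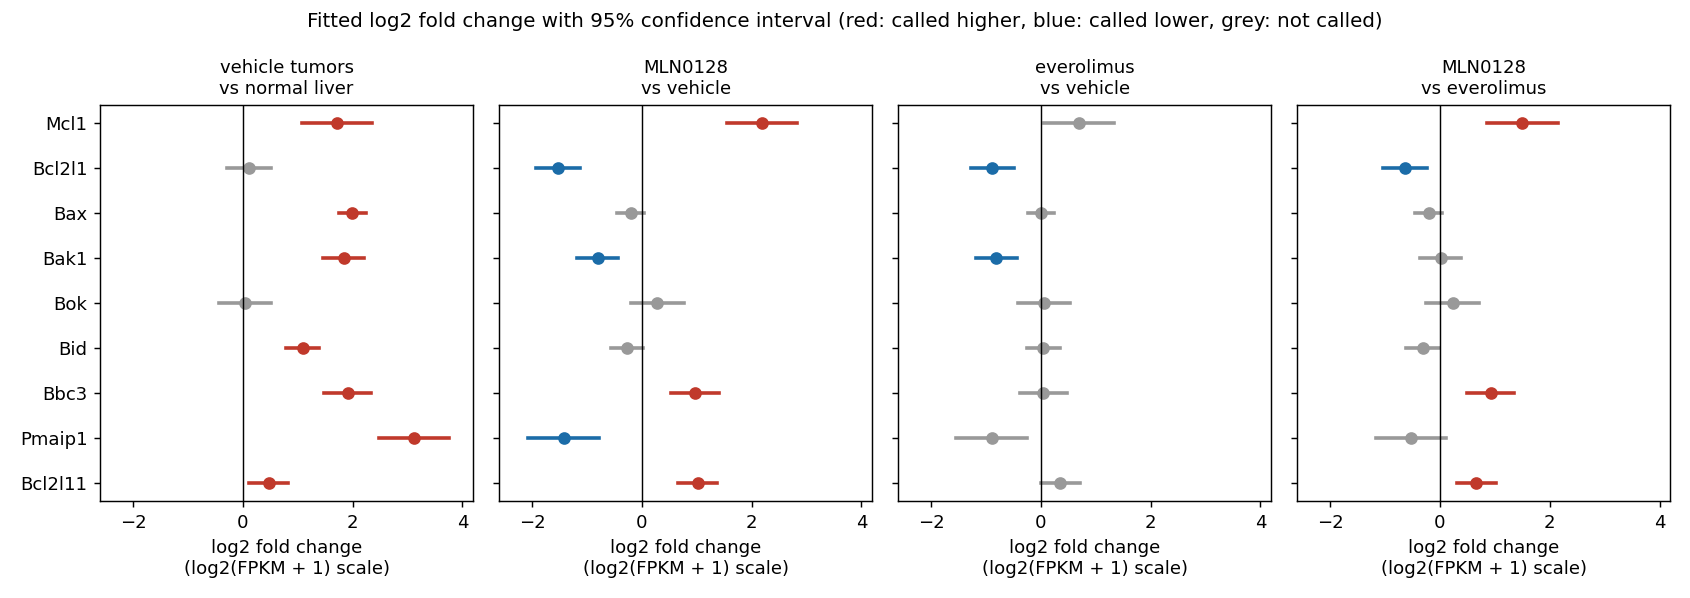
Log2 fold change of each tested member on the log2(FPKM + 1) scale with its 95% confidence interval, in 4 comparisons, colored by call. Under MLN0128 *Mcl1*, *Bbc3* and *Bcl2l11* lay to the right of 0 and *Bcl2l1*, *Bak1* and *Pmaip1* to the left, while under everolimus only *Bcl2l1* and *Bak1* were called.

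The 2 drugs were compared directly at the same dose and time, over 9 tested members and with p-values adjusted over all tested genes. *Mcl1* was higher with MLN0128 than with everolimus by 1.5 on the log2 scale (SE 0.293, adjusted p = 0.0137), *Bbc3* by 0.93 (SE 0.197, adjusted p = 0.0186) and *Bcl2l11* by 0.66 (SE 0.161, adjusted p = 0.0285). *Bcl2l1* was lower by 0.64 (SE 0.181, adjusted p = 0.0475). In each of these genes all 3 libraries of one drug lay beyond all 3 of the other. The same held for *Bax*, at 57.5 to 62 FPKM with MLN0128 and 64.4 to 71.7 with everolimus, which was not called. The share of all genes that separate in this way is not given here. *Bax* (-0.21, 95% interval -0.45 to 0.04), *Bid* (-0.32, -0.62 to -0.02, adjusted p = 0.160) and *Pmaip1* (-0.53, -1.17 to 0.11) were not called. Without MLN0128 replicates 1 and 2, 0 members were called in either direction, and the values were 0.71 for *Mcl1*, 0.65 for *Bbc3*, 0.39 for *Bcl2l11* and -0.57 for *Bcl2l1* (adjusted p from 0.184 to 0.284). Single libraries also decided these calls. Without MLN0128 replicate 1, *Mcl1* was at 1.26 (adjusted p = 0.0615), *Bbc3* at 0.90 (0.0693) and *Bcl2l11* at 0.48 (0.0958). Without everolimus replicate 3, they were at 1.47 (0.0628), 0.70 (0.0716) and 0.67 (0.0987), and without everolimus replicate 1 *Bcl2l11* was at 0.60 (0.0869). *Bcl2l1* lost its call in 11 of the 12 omissions of 1 library, with values from -0.70 to -0.52 in those omissions, and kept it without everolimus replicate 1.

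Comparisons of tumor with normal liver depend on how libraries are scaled to each other. The authors' values carry factors of 0.585 to 0.596 for normal liver but 1.10 to 1.37 for tumors beyond plain read totals. Under plain totals the median of all tested genes moved from 0.06 to 0.62 in vehicle-treated tumors against normal liver. All 9 tested members were then higher, with *Bcl2l1* at 0.96 (adjusted p = 0.000736) and *Bok* at 0.84 (adjusted p = 0.00815), near that shifted median. Under the authors' scaling, quantile normalization and plain totals alike, *Mcl1*, *Bax*, *Bak1*, *Bid*, *Bbc3* and *Pmaip1* were called higher. Of these, *Pmaip1* passed the filter through its tumor libraries only.

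**Figure D3:**
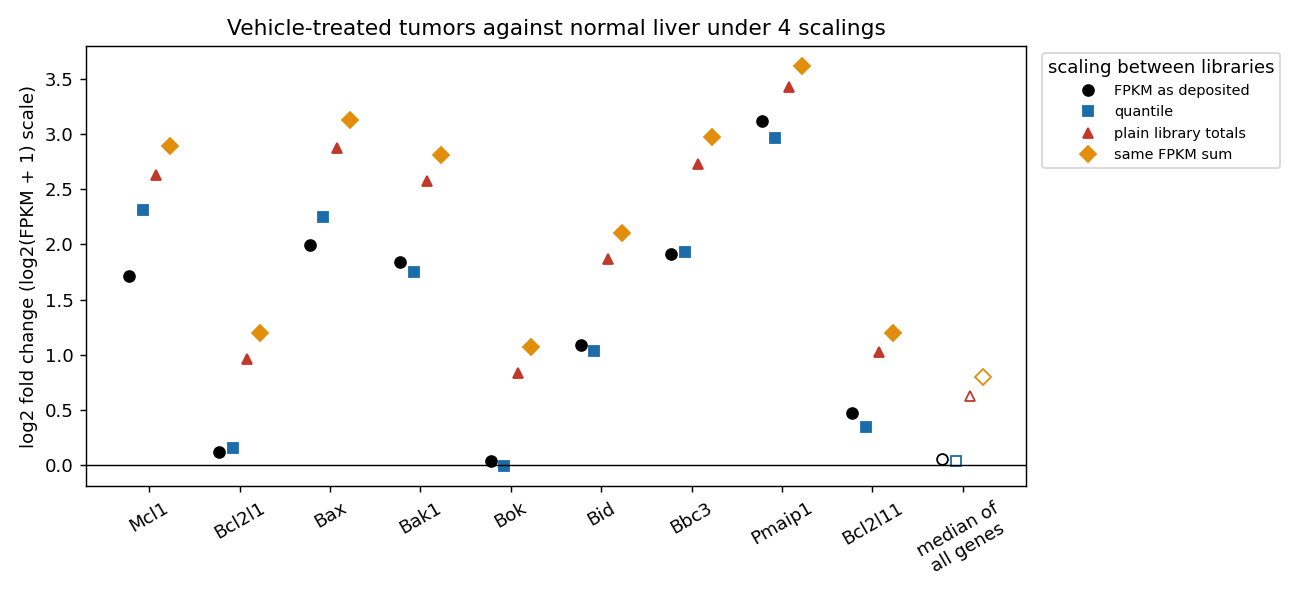
Log2 fold change of each tested member in vehicle-treated tumors against normal liver under 4 scalings between libraries, with open symbols for the median of all tested genes. Points for plain totals and equal FPKM sums sit above the others for every member, and *Bcl2l1* and *Bok* leave 0 only there.

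The balance between classes was taken as the ratio of summed FPKM within a library, which does not depend on scaling between libraries. It is a description of RNA and was not tested. The pro-survival to effector ratio was 2.24, 2.25 and 2.44 in normal liver and 2.30, 1.62 and 2.16 with vehicle. It was 14.9, 12.8 and 5.70 with MLN0128 and 2.77, 4.05 and 3.42 with everolimus. Normal liver and vehicle overlapped, everolimus lay above both, and MLN0128 lay above everolimus. The pro-survival to BH3-only ratio averaged 4.22 ± 0.180 (SD, n = 3) in normal liver, 3.32 ± 0.639 with vehicle, 10.3 ± 3.29 with MLN0128 and 5.44 ± 1.37 with everolimus. The effector to BH3-only ratio was 1.80 to 1.88 in normal liver, 1.49 to 1.74 with vehicle and 1.405 to 1.75 with everolimus. With MLN0128 it was 0.859 to 1.17, below every other library.

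*Mcl1*, the gene whose reads could not be divided from the plasmid's, set the pro-survival ratios. It made up 81.0% to 84.1% of the pro-survival sum in normal liver, 92.1% to 95.04% in the vehicle group, 99.2% to 99.7% under MLN0128 and 97.3% to 98.2% under everolimus. Without *Mcl1* the MLN0128 mean went from the highest of the 4 groups to the lowest, while normal liver stayed above vehicle. The pro-survival to effector ratio was then 0.407 ± 0.0540 (SD, n = 3) in normal liver, 0.130 ± 0.0176 with vehicle, 0.0755 ± 0.0226 with everolimus and 0.0475 ± 0.00544 with MLN0128, the last pair overlapping. The *Mcl1* to *Bcl2l1* ratio averaged 4.82 in normal liver, 14.9 with vehicle, 47.9 with everolimus and 254 with MLN0128.

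**Figure D4:**
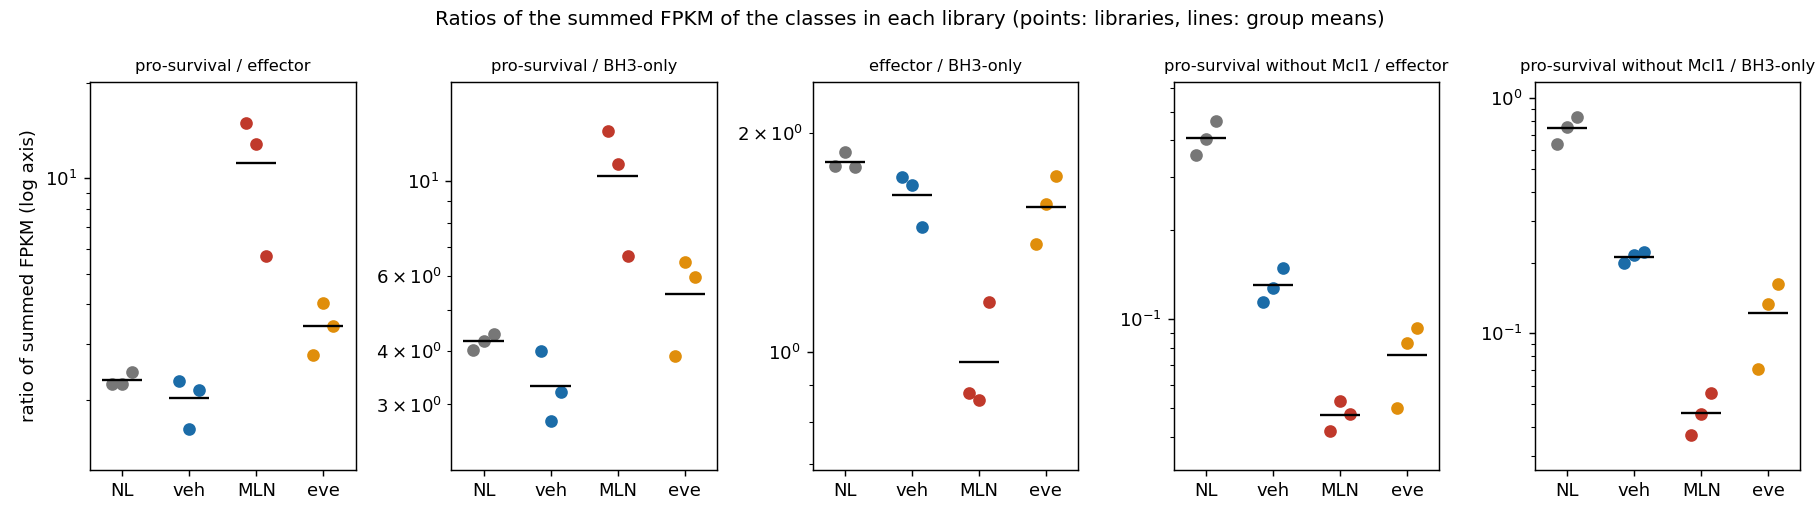
Ratios of the summed FPKM of the 3 classes in each library on log axes, with and without *Mcl1*, where points are libraries and lines are group means. The MLN0128 libraries were the highest in both ratios that include *Mcl1*, at 5.70 to 14.9 over effectors, and were at 0.0420 to 0.0529 over effectors without it.

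Within the effector class *Bax* supplied 58.4% to 60.8% of the FPKM for normal liver but 68.2% to 82.9% for tumors. *Bok* supplied 24.4% to 28.1% for normal liver but 5.26% to 13.6% for tumors. Among BH3-only members *Bbc3* took 42.2% to 53.4% in normal liver, 46.2% to 59.1% with vehicle and 71.4% to 78.4% with MLN0128. The share of *Pmaip1* was 1.55% to 2.61% in normal liver, 14.9% to 23.6% in the vehicle group, 1.47% to 7.07% under MLN0128 and 8.64% to 10.5% under everolimus. MLN0128 thus had the highest *Bbc3* share and, in 1 library, the lowest *Pmaip1* share.

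**Figure D5:**
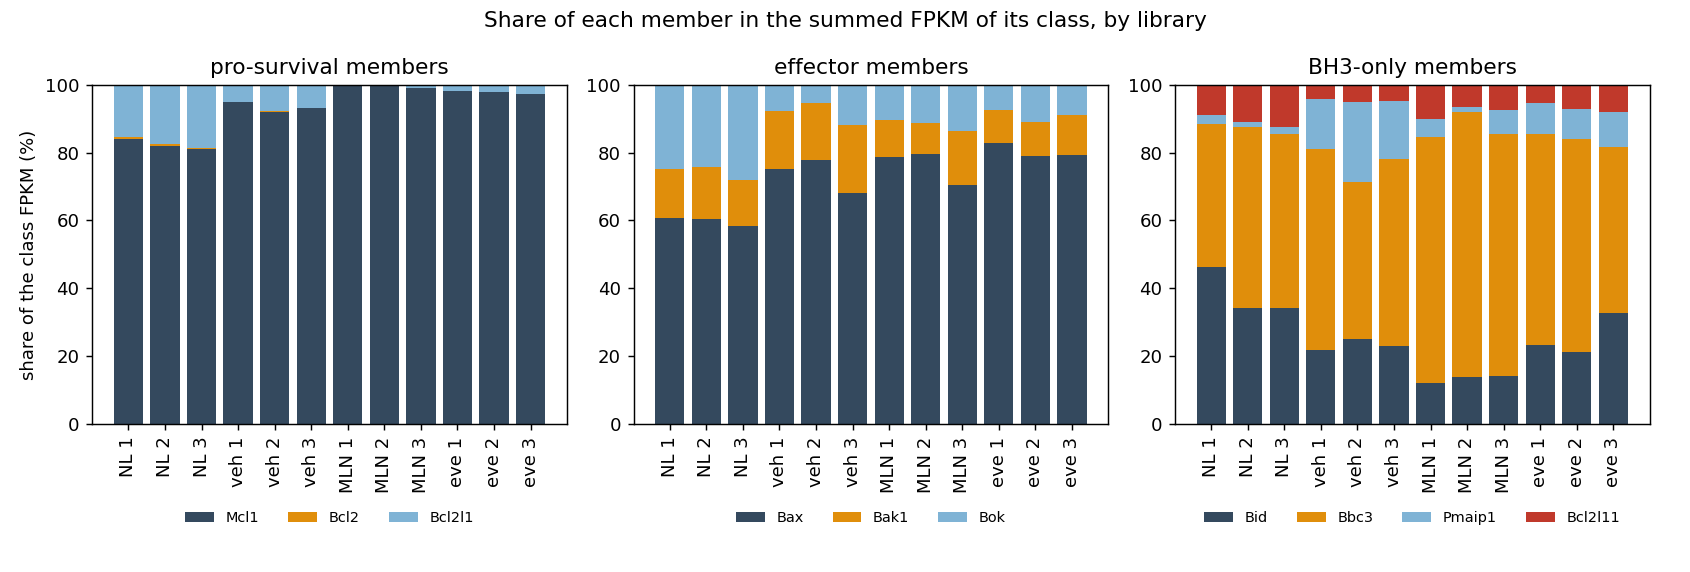
Share of each member in the summed FPKM of its class, in percent, with 1 stacked bar for each library. *Mcl1* fills 81.0% or more of every pro-survival bar, and the *Pmaip1* band is widest in the 3 vehicle libraries.

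Other relatives of the family moved less uniformly. For this and each later list, counts stand beside the shares of all tested genes called higher and lower. Those shares were 36.0% and 33.0% in vehicle-treated tumors, 14.9% and 17.1% with MLN0128, and 3.77% and 6.04% with everolimus. For MLN0128 against everolimus they were 3.99% and 5.54%. *Bcl2l2* (BCL-w), a pro-survival relative, was lower in vehicle-treated tumors, at 4.13 to 4.64 FPKM against 9.09 to 11 in normal liver (log2 fold change -0.997, SE 0.1105, adjusted p = 8.67e-06), but was at -0.18 under plain totals. It was the only one of the 2 tested pro-survival relatives to be called in any comparison. Of 8 further tested BH3-only and related genes, 1 was higher and 4 lower in vehicle-treated tumors (2 and 1 under plain totals), with a median log2 fold change of -0.40 against 0.06 for all genes. The 1 called higher under the authors' scaling was *Hrk*, which encodes the BH3-only protein Harakiri and passed the filter through its tumor libraries only. *Hrk* was at 0 to 0.0163 FPKM in normal liver and 4.99 to 5.09 with vehicle, and fell by 1.58 on the log2 scale with MLN0128 (adjusted p = 0.000535). *Bmf*, a BH3-only gene, rose with MLN0128 from 1.28 to 1.74 FPKM to 3.49 to 4.52 (0.98, SE 0.156, adjusted p = 0.00104). *Bnip3* and *Bad* fell with MLN0128, by 0.99 (adjusted p = 0.00319) and 0.39 (adjusted p = 0.0358, and not called under plain totals, at -0.26). When MLN0128 replicates 1 and 2 were left out, 1 of the 8 was higher and 2 were lower with MLN0128: *Bmf* at 0.87, *Bnip3* at -1.199 and *Hrk* at -1.32. With everolimus 0 of the 8 were called by limma, 3 had an unadjusted p under 0.05, and 0 were called by voom.

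Downstream of the mitochondrion, calls ran both ways, as they did over all tested genes. Backgrounds were 36.0% higher and 33.0% lower in vehicle-treated tumors, and 14.9% and 17.1% with MLN0128. Of 12 genes for caspases, the apoptosome and released mitochondrial proteins, 4 were higher and 6 lower in vehicle-treated tumors (7 and 2 under plain totals), 2 higher and 3 lower with MLN0128, and 0 higher and 2 lower with MLN0128 than with everolimus. *Apaf1*, the apoptosome scaffold, rose from 0.277 to 0.613 FPKM in normal liver to 2.13 to 4.0 with vehicle (1.42, SE 0.205, adjusted p = 7.20e-05). *Cycs* (cytochrome c) fell with MLN0128 by 1.35 (adjusted p = 0.00129). In the absence of MLN0128 replicates 1 and 2 the counts against vehicle were 0 higher and 2 lower, with *Cycs* at -1.42 (adjusted p = 0.0168), and 0 were called in either direction against everolimus. With everolimus 0 of the 12 were called by limma, 2 were higher at an unadjusted p under 0.05, and 1 was called by voom.

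Of 5 genes for inhibitor of apoptosis proteins, 2 were higher and 2 lower in vehicle-treated tumors (3 and 1 under plain totals), against backgrounds of 36.0% and 33.0%. *Birc5* (survivin) was at 0.409 to 1.2 FPKM in normal liver and 18.9 to 23.8 with vehicle (3.60, SE 0.329, adjusted p = 1.92e-06), and *Xiap* was lower in the tumors (-1.34, SE 0.149, adjusted p = 9.09e-06; -0.46 under plain totals). *Birc2* rose with MLN0128 by 0.40 (adjusted p = 0.0247), the only call of the list against vehicle, and was not called without MLN0128 replicates 1 and 2 (0.43, adjusted p = 0.140). Of 11 tested genes of the death receptor pathway, 2 were higher and 8 lower in vehicle-treated tumors (3 and 3 under plain totals), and 1 was higher and 3 lower with MLN0128. *Tnfrsf12a* (the TWEAK receptor) rose from 6.50 to 7.93 FPKM in normal liver to 65.7 to 76.8 with vehicle (3.11, SE 0.143, adjusted p = 1.34e-08). It fell with MLN0128 (-2.13, SE 0.143, adjusted p = 9.80e-06) and everolimus (-0.81, SE 0.143, adjusted p = 0.00593), and was lower with MLN0128 than with everolimus (-1.32, adjusted p = 0.00146). With MLN0128 replicate 3 as the only library of its group, *Tnfrsf12a* was at -2.26 against vehicle (adjusted p = 0.000923) and 0 of the 11 were higher and 2 lower, and *Tnfrsf12a* was at -1.45 against everolimus (adjusted p = 0.0113).

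Genes of the p53 pathway, which transcribes *Bbc3*, *Pmaip1* and *Bax* among others, were mostly higher in the tumors. Over all tested genes, 36.0% were called higher there, and with MLN0128 14.9% were called higher and 17.1% lower. Of 18 listed genes other than the members, 15 were higher and 1 lower in vehicle-treated tumors (17 and 0 under plain totals), with a median log2 fold change of 2.12 against 0.06 for all genes. *Cdkn1a* (p21) was at 0.444 to 0.766 FPKM in normal liver and 76.3 to 97.3 with vehicle (5.75, SE 0.123, adjusted p = 7.85e-11), and *Phlda3* at 0.654 to 0.922 and 37.1 to 60.5. With MLN0128 3 were higher and 5 lower, and without its replicates 1 and 2, 0 were higher and 2 lower. With everolimus 0 were called by limma, 2 were higher and 5 lower at an unadjusted p under 0.05, and 1 was called by voom.

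The ATF4 and CHOP axis, a stress response that can induce *Pmaip1* and *Bbc3*, fell with MLN0128. All 8 listed genes were called lower, with a median log2 fold change of -2.17 against -0.01 for all genes. Of the 8, 6 were lower with MLN0128 than with everolimus, and 1 was lower with everolimus than with vehicle. The everolimus median was -0.62 against 0.03 for all genes, with 6 lower at an unadjusted p under 0.05 and 0 called by voom. *Chac1* went from 20.8 to 32.5 FPKM with vehicle to 0.287 to 0.710 with MLN0128 (-4.23, SE 0.224, adjusted p = 1.99e-06), and *Trib3* from 35.0 to 49.5 down to 2.30 to 2.50 (-3.58, SE 0.382, adjusted p = 0.000135). With MLN0128 replicate 3 alone all 8 were still lower than with vehicle, with a median of -2.35, and 2 were lower than with everolimus. In vehicle-treated tumors against normal liver, 6 of the 8 were higher and 1 lower. *Ddit3*, which encodes CHOP, was the 1 gene called with everolimus (-1.11, SE 0.195, adjusted p = 0.00585).

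FOXO factors and their targets, to which *Bcl2l11* belongs, were called in both directions, as were all tested genes. Of 10 listed genes, 5 were higher and 5 lower in vehicle-treated tumors, and 1 was higher and 3 lower with MLN0128. *Foxo3* was higher with MLN0128 (0.63, SE 0.182, adjusted p = 0.0215), but not called without replicates 1 and 2 (0.33, adjusted p = 0.240), and *Foxo4* fell with both drugs, from a lowest of 50 and a highest of 54.1 FPKM with vehicle to 8.51 to 12.6 with MLN0128 and 18.6 to 27.9 with everolimus. Among 7 tested genes for MCL1 protein turnover, 4 were higher and 1 lower in vehicle-treated tumors (7 and 0 under plain totals), and 1, *Gsk3b*, was lower with MLN0128 (-0.31, adjusted p = 0.0401), a call lost under plain totals (-0.18) and without MLN0128 replicates 1 and 2 (-0.33, adjusted p = 0.151). Of the 6 apoptosis genes that the study itself named on these libraries, and which are not independent evidence for that reason, 2 were higher and 3 lower in vehicle-treated tumors. With MLN0128 5 of the 6 were lower (2 without its replicates 1 and 2), with everolimus 2, and between the drugs 0 were called by limma or voom and 2 had an unadjusted p under 0.05. At an unadjusted p under 0.05, 5 of the 6 were lower with everolimus, and 1 was lower by voom. *Pmaip1* and *Bak1* are among these 6.

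Markers of other liver cells moved with the groups. Macrophage and Kupffer cell markers (8 genes) summed to 248 to 296 FPKM in normal liver, 104 to 143 in the vehicle group, 40.3 to 70.4 under MLN0128 and 62.7 to 163 under everolimus. Of these 8, 1 was higher and 6 lower in vehicle-treated tumors (1 and 2 under plain totals). The 1 was *Cd68*, at 4.80 to 5.75 FPKM in normal liver and 24.6 to 36.8 with vehicle. Endothelial markers (6 genes) summed to 50.4 to 58.6 FPKM for normal liver but 9.65 to 16.2 for tumors. Of these 6, 0 were higher and 4 lower in vehicle-treated tumors (2 and 4 under plain totals). *Pecam1* and *Cdh5* were not called, and *Clec4g* alone went from 26.5 to 29.9 FPKM in normal liver to 0.405 to 0.626 with vehicle. Biliary markers (4 genes) summed to 17.0 to 52.5 FPKM with vehicle and 0.743 to 4.28 in all other groups. Stellate cell and fibroblast markers (6 genes) lay at 24.9 to 82.3 FPKM and neutrophil markers (4 of 6 found) at 1.06 to 17.0. The stellate cell and fibroblast sum joins 3 genes called higher and 3 called lower in vehicle-treated tumors (3 and 2 under plain totals). T and NK cell markers (5 of 7 found) stayed at or below 1.54 FPKM in sum and B cell markers (4 genes) at or below 2.52. No marker was at 0 in all libraries of a group. In bulk tissue fewer cells of a type and less RNA per cell cannot be told apart, and the part of these cells in the members' values was not tested.

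The genes whose pattern over the 12 libraries lay closest to that of *Mcl1* were *Tex9*, *Sp3os* and *Twnk*, with Pearson r of 0.979, 0.978 and 0.976 on the log2(FPKM + 1) scale. Closest to *Pmaip1* were *Usp43* (r = 0.978), *Necap2* (0.978) and *S100a6* (0.972). These values are descriptions across libraries that share their groups.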

How the data were processed

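RNA from 12 mouse livers and tumors was prepared and sequenced at a service provider after polyA capture or removal of ribosomal RNA. The authors deposited FPKM values per gene symbol, and per their methods counted reads per Ensembl gene, converted IDs to Entrez genes and tested with edgeR. The submitters' processing notes name FastQC 0.11.7 and GRCm38; the aligner, the counter and the gene lengths were not given in the sources used here.

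Here log2(FPKM + 1) was fitted with limma 3.58.1 (R 4.3.3) in 1 model of 4 groups of 3 (8 residual degrees of freedom, intensity trend), over the 14393 genes reaching 0.5 FPKM in 3 or more libraries. Calls required a Benjamini-Hochberg adjusted p under 0.05. The fit was tested on simulated data. Summaries used pandas 2.3.3, and plots used matplotlib 3.10.9. Multiplying the deposited FPKM by GENCODE M21 exon lengths gave whole reads (within 0.1) for 98.2% to 98.8% of values under 20 reads, where chance gives 20%. Those reads entered voom as an alternative. Further alternatives were another pseudocount, other filters, other scalings, a minimum fold change of 1.5, the 2 groups alone, no trend, a replicate block and each library left out.

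The members and gene lists were chosen with earlier results of these data known. All 10 members are named, with any gene of a list of up to 12 genes, and up to 4 called genes with the largest change in longer lists. Of the deposited symbols, 2 occurred more than once and were left out, so that 17003 genes remained. Another 18 symbols had been turned into dates.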

Additional observations from a re-analysis of the deposited data

Results flagged for a closer look

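Direct comparison of the 2 drugs, which were given at 1 mg/kg per day over the same time, found 4 members that differed. MLN0128 against everolimus gave 1.5 for *Mcl1*, 0.93 for *Bbc3*, 0.66 for *Bcl2l11* and -0.64 for *Bcl2l1* on the log2(FPKM + 1) scale by limma's moderated test. None of the 4 was called without MLN0128 replicates 1 and 2, the libraries with *Xist* reads and no reads on the Y-linked genes, where the values were 0.71, 0.65, 0.39 and -0.57. The part of that difference in sex between libraries in these results was not tested.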

How the results depend on the processing

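In vehicle-treated tumors against normal liver the direction of every call held under all alternatives, and *Bok*, not called, was at -0.010 under quantile normalization and from -0.19 to 0.27 when 1 library was left out. *Bax* differences near 0 changed sign: MLN0128 against vehicle was 0.031 with equal FPKM sums and 0.097 with quantiles, everolimus against vehicle 0.0083 with plain totals, 0.088 with quantiles and 0.0073 with voom, and MLN0128 against everolimus 0.044 with equal sums and 0.0087 with quantiles. Leaving out 1 library, everolimus against vehicle ran from -0.10 to 0.060 for *Bax*, -0.097 to 0.27 for *Bbc3*, -0.023 to 0.14 for *Bid* and -0.18 to 0.28 for *Bok*, and *Bak1* between the drugs from -0.22 to 0.18.

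Counts of members called moved as follows, and the cause was not tested. Against a minimum fold change of 1.5, MLN0128 against vehicle kept 1 higher and 1 lower, everolimus against vehicle 0 lower, and MLN0128 against everolimus 0 in either direction. Equal FPKM sums left 1 lower with everolimus. Between the drugs, 0 were called in either direction with only the 2 groups or without MLN0128 replicates 1 and 2, where MLN0128 against vehicle had 2 higher and 2 lower, and 0 were lower under no filter, equal sums, plain totals, quantiles and voom. With 1 library out, between the drugs 0 to 3 were higher and 0 to 1 lower, and with everolimus 0 to 1 higher and 0 to 3 lower.

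The class ratios moved with their construction. Without *Mcl1*, in the order normal liver, vehicle, MLN0128, everolimus, pro-survival to effector was 0.407, 0.130, 0.0475 and 0.0755, and pro-survival to BH3-only 0.744, 0.212, 0.0460 and 0.122. With mean log2 values in place of sums, the log2 difference of pro-survival to effector was -0.71 (vehicle against normal liver), 0.50 (MLN0128 against vehicle) and 0.25 (everolimus against vehicle), where sums gave -0.21, 2.36 and 0.75. Pro-survival to BH3-only gave -1.07, 0.18 and 0.10 in place of -0.37, 1.59 and 0.70, and effector to BH3-only -0.36 and -0.31 in place of -0.16 and -0.77 for the first 2.

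Same-numbered libraries did not deviate together (18 pairs, r from -0.289 to 0.148, median -0.0612), and differently numbered ones reached 0.396 (36 pairs, median 0.0257). Deviations from means of 3 libraries cannot exclude a pairing of samples. The replicate block left 2 members higher with MLN0128 than with everolimus in place of 3, *Bcl2l11* being at 0.66 (adjusted p = 0.0587). Low reads limit *Bcl2* throughout and *Pmaip1* in normal liver.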
